A study of Homo sapiens with 20 samples.

Results

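The 10 genes described here, ZEB1, ZEB2, SNAI1, SNAI2, TWIST1, VIM, FN1, CDH2, SPARC and TAGLN, are a list of symbols used to follow the epithelial-mesenchymal transition, and all 10 of the 10 symbols were found among the 17113 protein-coding genes counted. They were measured in 20 libraries, as RNA of the extracellular vesicles and as total cell RNA of 10 human colorectal cancer lines, each line giving 1 library of either kind. The lines were SW480, HCT 116, LS123, WiDr, HT-29, COLO-201, LoVo, SNU-C1, LS513 and LS1034, all labelled as untreated adenocarcinoma, LS1034 and LS513 from the cecum and the other 8 from the colon. The culture medium, with added fetal bovine serum, was DMEM or RPMI-1640 per the labels' protocols, and the series title names how far vesicle RNA reports the transcriptome and subtype of a cancer as the question. Libraries of vesicle RNA came from a SMART-Seq kit for low input, and those of cell RNA from a stranded kit that removes ribosomal RNA, so compartment and kit cannot be told apart.

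Vesicle libraries held 1748238 to 24358033 counts and cell libraries 24777352 to 37418506. Levels below are in CPM, counts relative to the library size after scaling by the trimmed mean of M-values (TMM). HT-29 and WiDr are known to derive from the same tumour, and the deviations of their cell libraries from the mean over lines correlated at 0.851 across 11609 genes. LS123 and HCT 116, labelled as different lines, correlated at 0.831, while the next pair had 0.357. The spread over lines therefore treats as separate some lines that were close to each other, and repeat cultures of a line were not among the libraries, so that p-values rest on the spread between lines. Each cell library carried EPCAM, a surface protein of epithelium, at 673 to 6987 CPM and the simple-epithelial keratin gene KRT8 at 920.5 to 7604 CPM. CDX2 and VIL1, an intestinal transcription factor and a brush border protein, were under 1 CPM in the cells of 2 lines each, the lowest being COLO-201 for CDX2 and HCT 116 for VIL1.

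In the epithelial-mesenchymal transition, epithelial cells loosen their junctions and take on the shape, cytoskeleton and matrix of mesenchymal cells. A small set of DNA-binding repressors, the ZEB, SNAI and TWIST factors, drives this change, in large part by silencing E-cadherin, and vimentin, N-cadherin, fibronectin, SPARC and transgelin are among the products that mark the mesenchymal state. In colorectal cancer most tumour cells keep an epithelial programme, and ZEB1 and vimentin are classical marks of the lines and invasive fronts that lose it.

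The ZEB and SNAI repressors bind the E-box motif CAGGTG, or CACCTG on the other strand. Promoters, taken as the 250 bases before and 50 bases after the gene start in RefSeq's GRCh38.p14 table, were found for 6 of the 10 genes and for 15 of 30 epithelial genes listed as their counterparts. The motif was searched in both orientations, and it occurred in 19.4% of 13513 promoters of genes in the count table, in 1 of the 6 (ZEB1) and in 8 of the 15 epithelial promoters. The following 3 promoters are shown because they belong to the one gene of the list with the motif, to an epithelial gene nearly absent from SW480, the line with the most ZEB1, and to an epithelial gene with 5 copies of the motif whose level in that line lay within the range of the others. Capitals mark the motif, and a match is a run of letters only, not a bound site.
ZEB1, chr10:31318167-31318466, plus strand: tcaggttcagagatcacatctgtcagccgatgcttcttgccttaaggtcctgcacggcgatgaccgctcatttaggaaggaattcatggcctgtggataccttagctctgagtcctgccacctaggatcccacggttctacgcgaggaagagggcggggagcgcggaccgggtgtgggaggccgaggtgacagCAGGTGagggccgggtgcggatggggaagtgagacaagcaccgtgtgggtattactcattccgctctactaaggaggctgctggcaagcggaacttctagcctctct
RAB25, chr1:156060910-156061209, plus strand: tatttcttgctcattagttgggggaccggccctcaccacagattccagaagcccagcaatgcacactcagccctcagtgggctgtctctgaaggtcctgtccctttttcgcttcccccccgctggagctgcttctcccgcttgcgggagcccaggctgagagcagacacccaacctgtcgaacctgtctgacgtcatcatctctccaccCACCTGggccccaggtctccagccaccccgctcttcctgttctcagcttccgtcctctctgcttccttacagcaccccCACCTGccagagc
CRB3, chr19:6464021-6464320, plus strand: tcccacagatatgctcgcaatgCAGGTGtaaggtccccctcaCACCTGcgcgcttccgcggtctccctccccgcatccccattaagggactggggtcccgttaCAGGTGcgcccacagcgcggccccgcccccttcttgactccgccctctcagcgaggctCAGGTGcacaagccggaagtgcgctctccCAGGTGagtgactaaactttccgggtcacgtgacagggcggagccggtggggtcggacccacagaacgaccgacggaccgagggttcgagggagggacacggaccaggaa

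Counts of the genes were sparse in the cells, while the vesicle libraries held reads in nearly every combination of gene and line. Of the 100 combinations of gene and line, 89 reached 10 counts in vesicles and 61 in cells, and 32 stood at 3 counts or fewer in cells. The vesicle counts include the background described below, which 23 of the 100 exceeded by the measure given there. Such shares were not computed over all genes, so these counts are no result about the list. SNAI1, FN1 and TAGLN reached 10 counts in all 10 cell libraries, and CDH2 in 0. Which lines stood out differed from gene to gene, as the map of levels by line shows. SW480 cells held most of the VIM and SNAI2, COLO-201 cells most of the FN1, and ZEB1 was concentrated in SW480, HCT 116 and LS123. Each value is an average over the cells of a culture, so fewer expressing cells and less RNA per cell cannot be told apart.

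**Figure D1:**
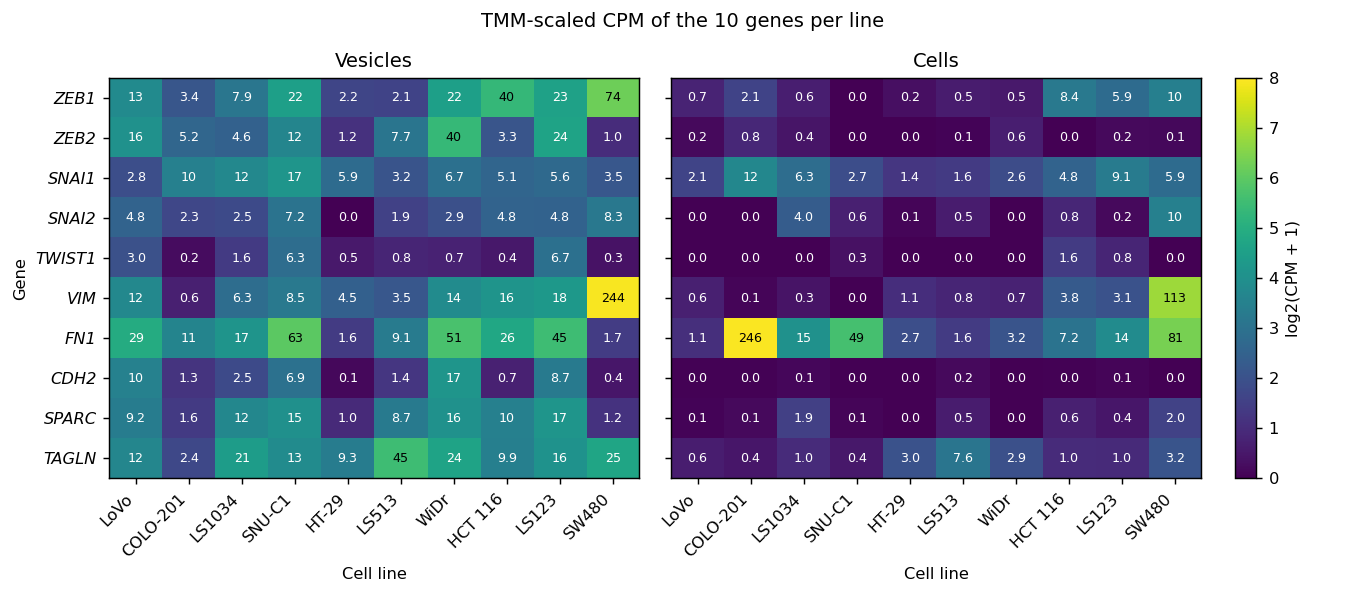
Levels of the 10 genes (rows) in the vesicles (left) and cells (right) of the 10 lines (columns), 1 library each; numbers are TMM-scaled CPM and colour is log2(CPM + 1). VIM stands at 244 CPM in SW480 vesicles and 113 CPM in SW480 cells, and FN1 at 11.2 CPM in COLO-201 vesicles and 246 CPM in COLO-201 cells.

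Vesicle libraries also held reads of genes with hardly any in the cells. From 2027 genes that never exceeded 10 counts in a cell library, called silent here, the counts that a gene of given exonic length and GC content would have from this layer alone were estimated for each library. Over all genes they came to 1.99% to 47.4% of vesicle counts and 0.0322% to 0.153% of cell counts. The estimate was under 10% in the vesicles of 5 lines (COLO-201, HT-29, LS513, HCT 116 and SW480), called the lower-background lines here. Each vesicle count below is set beside this expected background. The silent genes themselves had a summed observed count of 0.0696 to 1.97 times the expected one (5th to 95th percentile), so a ratio inside that range does not set a gene apart from them. In a single library the 95th percentile ran from 2.17 in LoVo to 3.67 in HCT 116, and 23 of the 100 combinations lay above it. The same share over all genes was not computed, so this count is no result about the list.

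ZEB1, a zinc finger repressor of E-cadherin, stood out in SW480. SW480 had 1433 counts in vesicles and 302 in cells, HCT 116 had 180 and 232, and LS123 had 82 and 149. The other 7 lines had 16 to 91 counts in vesicles and 0 to 58 in cells. In CPM, SW480 stood at 74.0 in vesicles and 10.0 in cells, HCT 116 at 39.6 and 8.41, and LS123 at 23.0 and 5.91. These 3 lines led the others in both compartments, with a highest level elsewhere of 21.9 CPM in vesicles and 2.05 CPM in cells. The observed vesicle count was 158 times the expected background in SW480 (95% Poisson interval from 150.2), 27.4 times in HCT 116 and 7 times in HT-29, and above the 95th percentile of silent genes in these 3 lines. In LS123 it was 1.52 times the expected count, inside the range of silent genes. The lowest, median and highest levels were 2.06, 17.5 and 74.0 CPM in vesicles and 0, 0.670 and 10.0 CPM in cells. ZEB1 averaged 20.9 ± 22.1 CPM in vesicles and 2.90 ± 3.77 CPM in cells (SD, n = 10), and rose by 3.26 on the log2 scale (SE 0.74, edgeR adjusted p = 0.00173), higher in vesicles in 10 of 10 lines. The call held with the background subtracted (2.93, edgeR adjusted p = 0.0310) and within the 5 lower-background lines (2.21, adjusted p = 0.00743). The count of 10 lines refers to levels without subtraction. With it, LS513 vesicles stood at 0 CPM and COLO-201 vesicles at 1.80 CPM, under the 0.524 and 2.05 CPM of their cells.

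ZEB2, the paralogue of ZEB1 with the same kind of target sites, had no cell library above 24 counts. Its counts were 15 to 166 in vesicles and 0 to 24 in cells, with WiDr highest in vesicles and COLO-201 in cells. It was called higher in vesicles at 5.89 on the log2 scale (SE 0.92, edgeR adjusted p = 8.78e-05), but only 2 cell libraries reached the 0.407 CPM that the expression filter asks for, so the gene was tested mostly through its vesicle counts. The 577 vesicle counts summed over lines compare with 519 expected from background, a ratio of 1.11. No line exceeded the 95th percentile of silent genes, and after subtraction ZEB2 did not pass the filter.

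SNAI1, the zinc finger factor also called Snail, was the repressor most evenly spread over the lines. Its level ran from 2.76 CPM in LoVo to 17.2 CPM in SNU-C1 in vesicles, with a median of 5.78, and from 1.42 CPM in HT-29 to 11.9 CPM in COLO-201 in cells, with a median of 3.74. The compartments overlapped, and the difference of 0.67 on the log2 scale (SE 0.51, edgeR adjusted p = 0.271) did not pass the threshold. COLO-201 had 142 counts in vesicles, 13.5 times the expected background, and 337 in cells. HT-29, HCT 116 and SW480 vesicles also exceeded the silent genes, at 5.39, 4.69 and 3.87 times the expected count, while LoVo and LS123 vesicles were below it.

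SNAI2, or Slug, stood in cells mainly in SW480 and LS1034. SW480 had 160 counts in vesicles and 306 in cells, at 8.26 and 10.2 CPM, and LS1034 had 14 in vesicles and 119 in cells. The other 8 cell libraries had 23 counts or fewer, 3 of them none. In SW480 vesicles the count was 27.1 times the expected background, and HCT 116 and COLO-201 vesicles also exceeded the silent genes, at 6.01 and 2.76 times, while LS1034 vesicles had 1.09 times the expected count. HT-29 vesicles had 0 counts in a library of 24358033 counts, which allows up to 0.123 CPM of the library total. The difference of 3.08 on the log2 scale (SE 1.27, edgeR adjusted p = 0.0514) missed the threshold, and 4 cell libraries reached the limit of the filter. Before subtraction 7 of 10 lines were higher in vesicles. In LS1034 and SW480, the 2 lines with at least 30 counts in cells, the log2 vesicle-over-cell difference was -0.68 and -0.30, lower in vesicles. Summed over lines SNAI2 had 1.89 times the expected vesicle counts, and 0.965 times without SW480.

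TWIST1, a basic helix-loop-helix factor, had counts in the cells of 3 lines only. HCT 116 had 2 counts in vesicles and 45 in cells, LS123 had 24 and 20, and SNU-C1 had 20 and 8. The other 7 cell libraries were at 0, and their vesicles had 3 to 13 counts. Every vesicle library fell short of its expected background, at 0.127 to 0.978 times. TWIST1 was called higher in vesicles (edgeR adjusted p = 0.00114), a call made on vesicle counts that sum to 96 where the background estimate gave 218, and no fold is given because most cell libraries were at 0. In HCT 116, the line with the most TWIST1 in cells, the vesicle level was 0.440 CPM against 1.63 CPM in cells.

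**Figure D2:**
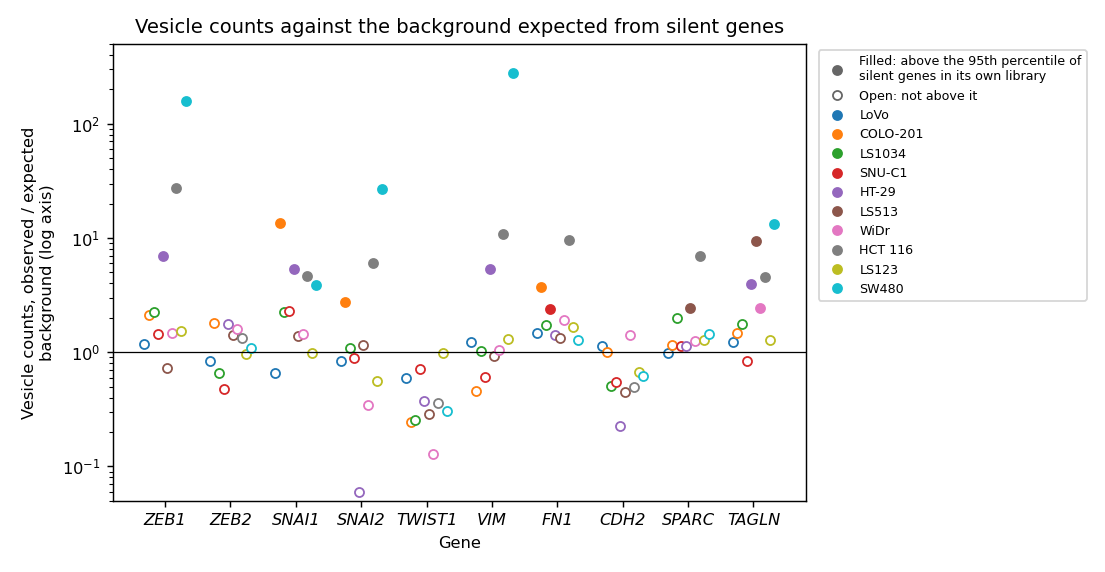
Observed vesicle counts of each gene divided by the counts expected from background (log axis), 1 point per line; filled points lie above the 95th percentile of silent genes in their own library, open points do not, and a ratio of 0 (SNAI2 in HT-29) is drawn near the lower edge. VIM and ZEB1 of SW480 stand at 279 and 158 times the expected count, and every TWIST1 point lies at or under 0.978.

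VIM, the mesenchymal intermediate filament vimentin, was carried by SW480. That line had 4719 counts in vesicles and 3413 in cells, at 244 and 113 CPM, which made up 74.4% of the summed CPM of the 10 vesicle libraries and 91.5% of that of the 10 cell libraries. HCT 116 followed with 75 counts in vesicles and 106 in cells, and LS123 had 65 and 77. The remaining 7 cell libraries had 0 to 26 counts, and their vesicles 9 to 99. Vesicle counts were 279 times the expected background in SW480, 10.9 times in HCT 116 and 5.30 times in HT-29, and 0.454 to 1.30 times in the other 7 lines. The median level was 10.3 CPM in vesicles and 0.742 CPM in cells, so the other lines lay far under SW480 in both compartments. VIM averaged 32.8 ± 74.3 CPM in vesicles and 12.4 ± 35.5 CPM in cells (SD, n = 10) and was called higher in vesicles at 3.15 on the log2 scale (SE 0.56, edgeR adjusted p = 0.000261), in 10 of 10 lines. With the background subtracted the difference was 1.40 (SE 0.62, adjusted p = 0.0978) and not called, and without the cell line block 1.41 (adjusted p = 0.388). In the 5 lower-background lines it was 1.97 (SE 0.32, adjusted p = 0.00340). The count of 10 lines refers to levels without subtraction. Subtracted vesicle levels of VIM were 0 CPM in LS513 and COLO-201, under the 0.787 and 0.0708 CPM of their cells. In LS1034 and WiDr they were 0.181 and 0.626 CPM, under 0.337 and 0.698 CPM in cells, and SNU-C1 was at 0 in both. The remaining lines stayed higher in vesicles. Exons of VIM overlap those of the antisense gene VIM-AS1 over 12.4% of their length, and those of ZEB1, ZEB2, SPARC, TWIST1 and CDH2 overlap antisense genes over 2.75% to 7.89%, and without a stated strand setting such reads cannot be told apart.

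TAGLN, the actin-binding protein transgelin of smooth muscle and fibroblasts, was low in cells and, before background was subtracted, higher in vesicles in all lines. LS513 had 352 counts in vesicles and 145 in cells, at 45.2 and 7.60 CPM, and SW480 had 481 and 97, at 24.8 and 3.22 CPM. HT-29 had 205 and 73 counts and WiDr 100 and 62, while the other 6 lines had 33 to 117 counts in vesicles and 11 to 29 in cells. The level ran from 2.36 to 45.2 CPM in vesicles, with a median of 14.6, and from 0.389 to 7.60 CPM in cells, with a median of 0.977, and the compartments overlapped. The levels averaged 17.7 ± 11.9 CPM in vesicles and 2.11 ± 2.23 CPM in cells (SD, n = 10), a rise of 3.37 on the log2 scale (SE 0.47, edgeR adjusted p = 3.21e-05) in 10 of 10 lines. The call held after subtraction (2.81, edgeR adjusted p = 0.00390) and in the lower-background lines (2.63, adjusted p = 0.00427). SNU-C1 vesicles had 0.83 times the expected count, and stood at 0 CPM after subtraction against 0.436 CPM in cells. SW480, LS513, HCT 116, HT-29 and WiDr vesicles exceeded the silent genes, at 13.2, 9.37, 4.57, 3.95 and 2.46 times the expected count. TAGLN exons overlap those of PCSK7 on the opposite strand over 11.4% of their length.

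CDH2, or N-cadherin, whose gain in place of E-cadherin is the best known switch of this transition, was not detectable above 3 counts in the cells of any line. The 10 cell libraries had 0 to 3 counts each and 11 in all, and CDH2 did not pass the filter. The vesicles had 3 to 72 counts, 227 in all where 279 were expected from background, a ratio of 0.814. With no filter it was called higher in vesicles (edgeR adjusted p = 4.98e-05), and no fold is given because the cell libraries were at or under 3 counts.

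FN1, the matrix glycoprotein fibronectin, differed between compartments in opposite directions from line to line. COLO-201 had 156 counts in vesicles and 6937 in cells, at 11.2 and 246 CPM. SW480 had 33 counts in vesicles and 2448 in cells, at 1.70 and 81.4 CPM, and its vesicle count was 1.27 times the expected background, inside the range of silent genes. COLO-201, SNU-C1 and HCT 116 vesicles exceeded that range, at 3.71, 2.41 and 9.52 times. SNU-C1 had 201 and 1343 counts, at 62.9 and 48.8 CPM, with an estimated 36.9 CPM in vesicles after subtraction. In the other 7 lines the vesicles stood at 1.63 to 50.6 CPM and the cells at 1.12 to 15.4 CPM. The median was 21.4 CPM in vesicles and 10.4 CPM in cells. FN1 was higher in vesicles in 7 of 10 lines before background was subtracted and in 5 after it. The difference of 0.81 on the log2 scale (SE 0.99, edgeR adjusted p = 0.503), without subtraction, was not called. In the lower-background lines it was -1.13 (SE 1.51, adjusted p = 0.574). Set among the 12210 genes with at least 30 counts in SW480 cells, the vesicle-over-cell difference of FN1, -5.49 on the log2 scale, stood at the 0.09th percentile. In COLO-201 the difference was -4.45, at the 0.67th percentile of 11353 genes. At the other end FN1 stood at the 99.67th percentile in LoVo, the 99.22nd in WiDr, the 99.12th in LS513 and the 97.0th in HCT 116. Of these 4 lines only HCT 116 had more vesicle counts than the range of silent genes, with 1.46 times the expected count in LoVo, 1.91 in WiDr and 1.34 in LS513.

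SPARC, a matricellular protein that binds collagen, had at most 59 counts in any cell library. SW480 had 24 counts in vesicles and 59 in cells, and LS1034 had 68 and 56. It was called higher in vesicles at 4.84 on the log2 scale (SE 1.02, edgeR adjusted p = 0.000990), with 3 cell libraries at the limit of the filter, and it was not called in the lower-background lines (3.45, adjusted p = 0.0504). HCT 116 vesicles had 46 counts where 6.66 were expected and LS513 vesicles 68 where 28.1 were expected, both above the silent genes. The sum over lines was 1.51 times the expected count, and SPARC did not pass the filter after subtraction.

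In all, 6 of the 9 genes tested were called higher in vesicles (ZEB1, ZEB2, TWIST1, VIM, SPARC and TAGLN) and 0 lower, where 28.6% of all 15130 genes tested were called higher and 28.1% lower. FN1 and SNAI1 alone reached the limit of the filter in all 10 cell libraries, so the other 7 passed it in part through vesicle counts and this balance is no result about the list. Without WiDr and LS123, 5 of 8 were called higher, where 3834 of 15015 genes were, and without the cell line block 5 of 9, against 22.9% of all genes. DESeq2's Wald test called 8 of 9 higher, where it called 41.4% of all genes higher and 20.8% lower. In the lower-background lines 4 of 8 were called higher (ZEB1, ZEB2, VIM and TAGLN), against 19.5% of 14793 genes. After background subtraction 2 of 5 were called higher (ZEB1 and TAGLN), against 14.9% of 12769 genes. The median log2 difference of all genes was 0.01 with TMM scaling and moved with the scaling, so directions are relative to it.

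**Figure D3:**
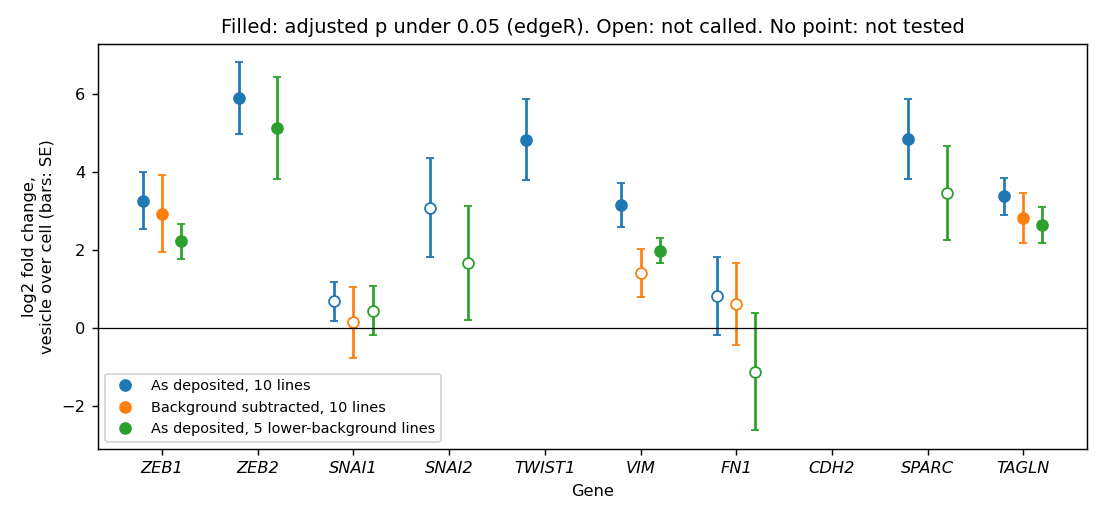
Log2 fold change of vesicles over cells (bars, SE) from edgeR for the 10 genes, as deposited over 10 lines (blue), with the expected background subtracted (orange) and in the 5 lower-background lines (green). Filled points are called; ZEB1 and TAGLN are filled in all 3 fits, and FN1 lies at 0.81, 0.62 and -1.13.

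Within SW480, the only line with more than 1 CPM per kilobase of exon of ZEB1, SNAI1, SNAI2, VIM and FN1 in its cells, the genes did not keep their proportions. Per kilobase, VIM stood at 47.2 CPM in vesicles and 22.0 CPM in cells, ZEB1 at 8.55 and 1.16, and TAGLN at 6.34 and 0.823. SNAI2 stood at 2.43 in vesicles and 3.0 in cells, SNAI1 at 2.08 and 3.49, and FN1 at 0.0984 and 4.70. FN1 was thus second only to VIM in SW480 cells and the third lowest of the 10 in SW480 vesicles. The log2 vesicle-over-cell difference of ZEB1 (2.87) stood at the 99.7th percentile of genes with at least 30 counts in SW480 cells, that of TAGLN (2.90) at the 99.7th and that of VIM (1.10) at the 93.3rd, against a median of -0.23. SNAI2 and SNAI1 lay at the 47.7th and 33.1st percentiles. These positions rest on 1 library pair.

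The order of the lines in vesicles was set beside that in cells for each gene. Across the 10 lines, Spearman's rho of vesicle and cell log2 CPM was 0.636 for VIM, 0.612 for TAGLN, 0.564 for ZEB1 and 0.448 for SNAI2. It was 0.370 for SNAI1, 0.0061 for FN1 and -0.0790 for SPARC. ZEB2, TWIST1 and CDH2, with few counts in cells, had 0.399, 0.321 and 0.0688 and are left out of the comparisons that follow. The median over 11609 tested genes with at least 10 CPM in a cell library was 0.394, with a 5th to 95th percentile of -0.188 to 0.830, which holds all of these values, and the 1161 most variable of those genes had a median of 0.575. TAGLN and SPARC stayed under 10 CPM in cells, and for them the median over all 15130 genes tested, 0.358, is the nearer measure. The points share library depth and kit, so these values are descriptions without a p. With the background subtracted, rho was 0.903 for TAGLN, 0.865 for VIM, 0.607 for SPARC, 0.543 for SNAI2, 0.515 for ZEB1, 0.237 for SNAI1 and 0.0061 for FN1, so that of SPARC turned positive. The values over all genes were not computed after subtraction, so these have no such reference. SW480 was the highest line in both compartments for ZEB1, SNAI2 and VIM, and LS513 for TAGLN. Without SW480, rho was 0.5 for VIM, 0.467 for TAGLN, 0.417 for SNAI1, 0.4 for ZEB1, 0.237 for SNAI2, 0.233 for FN1 and 0.125 for SPARC.

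**Figure D4:**
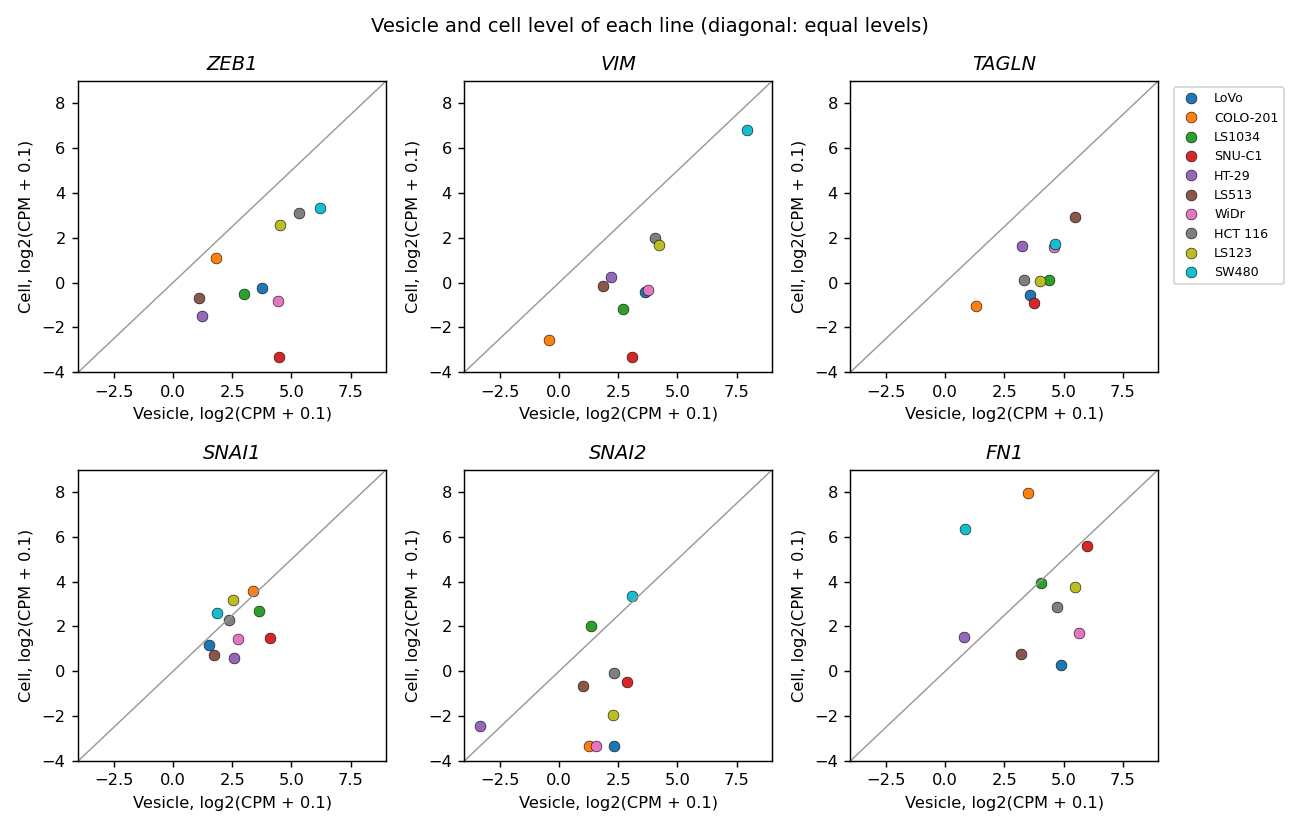
Vesicle level (x) and cell level (y) of 6 genes as log2(CPM + 0.1), 1 point per line; the diagonal marks equal levels. SW480 is the highest point on both axes for ZEB1, SNAI2 and VIM, and for FN1 the COLO-201 and SW480 points lie far on the cell side (246 and 81.4 CPM in cells).

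Among the 11659 genes with at least 10 CPM in a cell library, tested or not, those whose log2(CPM + 1) followed ZEB1 most closely over the 10 cell libraries were ITPRIPL1, ENOX1, GFPT2, PARP1 and RAD51C (Pearson's r from 0.955 to 0.964). In the vesicle libraries their r with ZEB1 was 0.182 to 0.606. VIM was followed most closely by IL31RA, CCBE1, AK8, PTGDS and KCNJ5 (0.954 to 0.974), all highest in SW480 cells, with r of -0.0861 to 0.475 in vesicles. Without SW480 their r with VIM in cells was 0.880 for IL31RA, 0.815 for AK8, 0.683 for KCNJ5, 0.668 for CCBE1 and 0.602 for PTGDS. The 5 genes nearest to ZEB1 then had r of 0.938 to 0.98 with ZEB1. All these genes were picked for the highest r over libraries that include the ones used here, so high values were in part fixed by that choice. HCT 116 and LS123, both among the lines with the most ZEB1, also had close cell libraries. VIM and ZEB1 had r of 0.764 with each other in cells and 0.847 in vesicles, and 0.796 in cells without SW480. The vesicle value used levels without background subtraction. Both genes exceeded the silent genes only in HT-29, HCT 116 and SW480 vesicles, and the part of background in this r was not tested.

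Genes of the epithelial state were compared with ZEB1 line by line. CDH1, or E-cadherin, stood at 3.15 CPM in vesicles and 50.6 CPM in cells of SW480, at 28.7 and 80.4 CPM in LS123 and at 11 and 132 CPM in HCT 116. The other 7 lines had 14.7 to 59.9 CPM in vesicles and 485 to 1095 CPM in cells, so the 3 lines with the most ZEB1 in cells were the 3 with the least CDH1 there. HCT 116 and LS123 among them are the pair of lines with close cell libraries. RAB25, a GTPase of epithelial membrane recycling whose promoter is shown above, had 0.671 CPM in vesicles and 0.199 CPM in cells of SW480, against at least 36.0 and 52.9 CPM in the other lines. CRB3, a polarity protein with 5 motif copies, stood at 28.1 CPM in vesicles and 17.1 CPM in cells of SW480, inside the 15.7 to 56.5 CPM of the other cell libraries. Over the 10 cell libraries, rho of ZEB1 with the 30 epithelial genes was negative for 28 of them, with a median of -0.588, against 51.6% of 11608 other genes and a median of -0.0182. In vesicles rho was negative for 28 of 30, with a median of -0.370, against 49.1% of the 11608 other genes and a median of 0.0061. Background was not subtracted from these vesicle levels, and ZEB1 exceeded the silent genes only in HT-29, HCT 116 and SW480 vesicles. The part of background in the vesicle values was not tested. SW480 was the lowest line for 11 of the 30 in vesicles and for 11 in cells. In cells HCT 116 was lowest for 8 and LoVo for 5, and in vesicles SNU-C1 for 6 and LS123 for 5. Shares over all genes were not computed, so these counts are no result about the epithelial genes. Among those lowest in SW480 was GRHL2, an activator of epithelial junction genes, at 0.361 CPM in vesicles and 0.0665 CPM in cells.

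**Figure D5:**
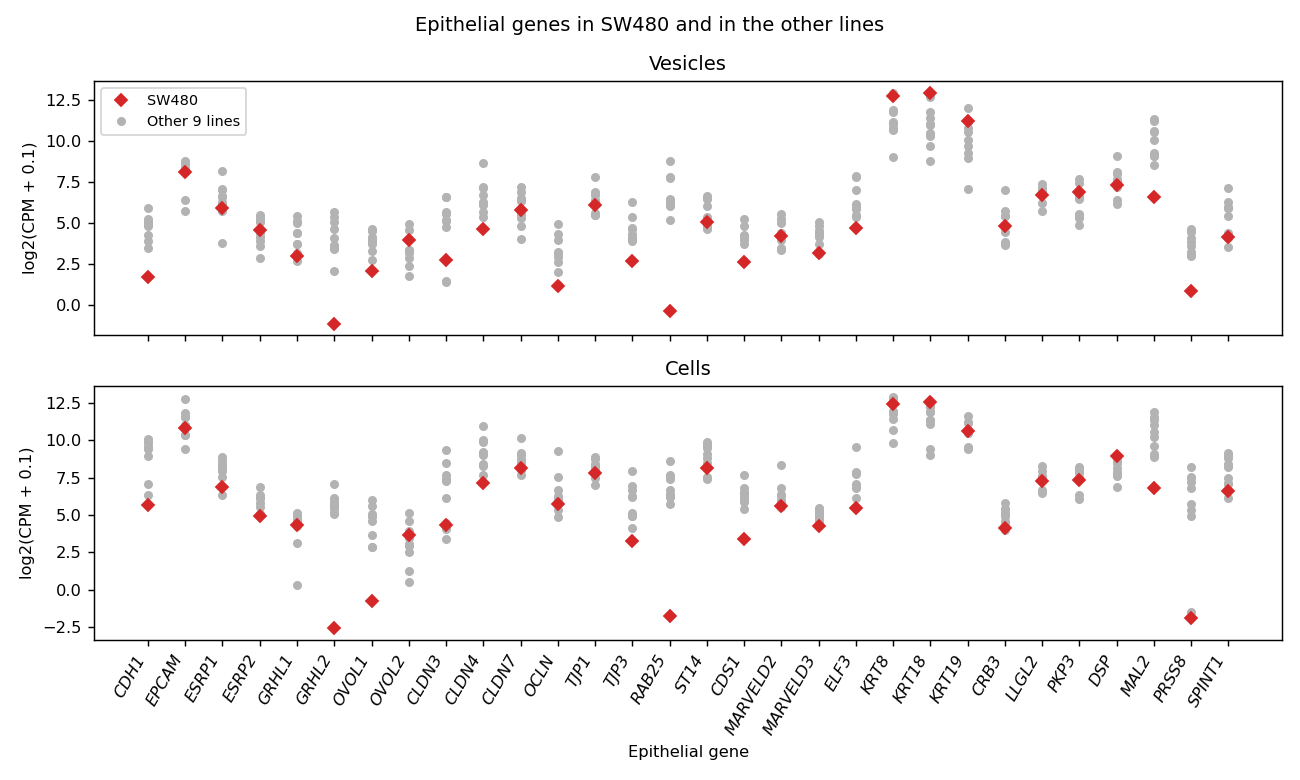
Levels of the 30 epithelial genes as log2(CPM + 0.1) in vesicles (top) and cells (bottom), with SW480 as red diamonds and the other 9 lines as grey points. RAB25, GRHL2 and CDH1 of SW480 lie under all grey points in both compartments, while KRT8, KRT18 and KRT19 lie among or above them.

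Between compartments, of the 30 epithelial genes tested 19 fell and 0 rose, with a median of -1.28, against 28.1% lower among all genes tested. CDH1 fell by 4.22 on the log2 scale (SE 0.41, edgeR adjusted p = 1.82e-06) and SPINT1, a protease inhibitor of epithelial surfaces, by 2.51 (SE 0.24, adjusted p = 1.75e-06). Their levels were 27.5 ± 16.2 CPM in vesicles and 591 ± 390 CPM in cells for CDH1, and 51.4 ± 39.4 CPM and 277 ± 180 CPM for SPINT1 (SD, n = 10). In 27 of the 30 every cell library reached the limit of the filter, and 18 of these fell, against 4234 of 10064 such genes overall. After subtraction 16 of 30 fell, where 19.2% of all genes were called lower. KRT8, KRT18, KRT19, RAB25 and CRB3 were not called, at -0.59 to 0.01.

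Of 11 other transcription factors of the transition, 9 were tested, 4 rose and 2 fell, where 28.6% of all genes were called higher and 28.1% lower. Of the 4 factors whose cell libraries all reached 0.407 CPM, 0 rose and 2 fell, so the 4 that rose were admitted to the test in part through vesicle counts. PRRX1, a homeobox factor of mesenchyme, stood at 9.61 ± 7.30 CPM in vesicles and 1.35 ± 2.20 CPM in cells (SD, n = 10; 4.88, SE 1.16, edgeR adjusted p = 0.00233), and TCF4 at 21.0 ± 21.0 and 1.70 ± 2.44 CPM (3.93, SE 1.06, adjusted p = 0.00549). Their vesicle counts were 1.46 and 1.91 times the expected background. After subtraction 0 of the 9 tested were called higher, beside 14.9% of all genes, with edgeR adjusted p of 0.102 for PRRX1 and 0.0533 for TCF4. SOX9, a factor of intestinal progenitors that is also active in mesenchyme, fell by 2.64 (SE 0.24, adjusted p = 1.34e-06), and TCF3, a helix-loop-helix factor, by 0.85 (SE 0.21, adjusted p = 0.00306). SOX9 was still called lower after subtraction at -2.07, and TCF3 was not (-0.38, adjusted p = 0.187).

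Of 36 other mesenchymal and invasion genes, 35 were tested, 12 rose and 5 fell, with a median of 0.86, beside the 28.6% higher and 28.1% lower of all genes and their median of 0.01. CNN1, the smooth muscle protein calponin, and FBN1, the microfibril protein fibrillin, had the smallest adjusted p among the rises (edgeR, 1.29e-05 and 6.45e-05), with 1.48 and 1.90 times the expected vesicle counts. CNN1 had 482 counts in vesicles and 10 in cells summed over lines. FBN1 remained called after subtraction (3.77, edgeR adjusted p = 0.0426). Of 29 genes of the list then tested, 5 were called higher and 4 lower, beside 14.9% and 19.2% of all genes. ITGB1, the beta subunit shared by many integrins, fell by 3.50 (SE 0.35, edgeR adjusted p = 2.2e-06). Among the 11 genes of this list whose cell libraries all reached 0.407 CPM, 5 fell and 0 rose, where 4234 of all 10064 such genes were called lower and 696 higher. Without the cell line block 4 of the 35 genes tested were called higher, beside 22.9% of all genes.

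Of 16 genes of the signals that induce the transition, all tested, 10 fell and 2 rose, with a median of -1.31, beside the 28.1% lower and 28.6% higher of all genes. In 14 of the 16 every cell library reached 0.407 CPM, and 10 of these fell and 1 rose, beside 4234 lower and 696 higher of all 10064 such genes. The transforming growth factor beta receptors TGFBR1 and TGFBR2 fell by 3.38 (SE 0.46) and 2.52 (SE 0.34), with edgeR adjusted p of 2.65e-05 and 2.24e-05. TGFBR2 averaged 47.4 ± 23.1 CPM in vesicles and 307 ± 199 CPM in cells (SD, n = 10). TGFB3, a ligand of these receptors, rose by 2.73 (SE 0.72, adjusted p = 0.00493) and HMGA2, a chromatin protein induced by this signal, by 1.21 (SE 0.33, adjusted p = 0.00657). After subtraction 9 fell and 0 rose, beside 19.2% lower and 14.9% higher of all genes.

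Markers of other cell types had vesicle reads as well, and their part in the results above was not tested. None of the markers in the 3 lists reached 0.407 CPM in all cell libraries, so each one tested was admitted in part through vesicle counts, and the counts below stand beside 28.6% of all genes called higher. The 10 fibroblast markers summed to 28.5 to 298 CPM in vesicles and 0.891 to 19.9 CPM in cells, with vesicle counts 1.63 times the expected background. THY1 and COL1A2 were called higher in vesicles (edgeR adjusted p = 1.61e-06 and 6.53e-06), at 1.11 and 2.40 times the expected count, and 7 of 8 tested were called in all. The 4 endothelial markers used (CDH5 and PECAM1 were not analysed here) summed to 6.30 to 112 CPM in vesicles and 0 to 16.6 CPM in cells, and 2 of 2 tested were called higher, VWF and KDR. The 5 leukocyte markers used (CD3E was not analysed here) summed to 6.60 to 68.0 CPM in vesicles and 0.210 to 11.3 CPM in cells, and 4 of 4 tested were called higher, ITGAM among them. No marker of the 3 lists was at 3 counts or fewer in every library of a compartment.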

How the data were processed

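The authors deposited raw counts of reads per protein-coding gene, with STAR, featureCounts and hg19 named per the submitters' processing notes; versions, annotation and strand setting were not given in the sources used here. Each of the 20 columns was tied to its library by title, with 0 left over. Vesicles were tested against cells in edgeR 4.0.16 (R 4.3.3) by robust quasi-likelihood fitting, after filterByExpr and TMM scaling, keeping the cell line as a block. Benjamini-Hochberg adjustment ran over every tested gene and calls needed an adjusted p under 0.05. Fold changes (log2) have the vesicle on top, and the SE is the absolute fold change over the square root of F. The pairing comes from the cell line in the labels, and the deviations of a line's 2 libraries from the compartment means correlated at 0.0846 to 0.546. Expected background was fitted per library on 2027 silent genes (quasi-Poisson regression on log exonic length and GC content with squared terms, statsmodels 0.14.6, listed genes left out), with length and GC from GENCODE 29 for 16827 symbols, and subtracted counts were rounded and cut at 0. Correlations used log2 CPM with a prior count of 2, or log2(CPM + 1) for the genes most like ZEB1 and VIM. A count of 0 allows up to 3 counts, 0.123 to 1.72 CPM of the library total in vesicles and 0.0802 to 0.121 CPM in cells, and Poisson intervals (exact, 95%) and these limits cover counting error only. The text names the 10 genes, the 2 called members with the smallest adjusted p in each direction of each other list (some are not reported here), and the 5 genes most like ZEB1 and VIM, plus genes named after their values were seen (RAB25, CRB3, GRHL2, EPCAM, CDX2, VIL1 and the keratins). The members, lists and tests were chosen with earlier results of these data known. The alternatives were other scalings, DESeq2 1.42.0, no filter, no block, background subtraction and subsets of lines.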

Additional observations from a re-analysis of the deposited data

Results flagged for a closer look

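VIM in SW480 cells stood apart from the other 9 cell libraries: its gap to the next line was 0.486 of the whole range on the log2 CPM scale, at 113 CPM where the next line had 3.84 CPM. SW480 vesicles held 244 CPM. SNAI2 in HT-29 vesicles stood apart at the low end, with a gap of 0.672 of the range, at 0 counts where 5.04 were expected from background, and HT-29 cells had 2 counts. In groups of 10, chance alone sets apart about 1 in 20, and 20 groups (10 genes in each compartment) were examined for both ends.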

How the results depend on the processing

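The calls of ZEB1 and TAGLN held under all 19 alternatives. Log2 fold changes ran from 2.21 to 3.97 for ZEB1 and from 2.63 to 4.12 for TAGLN. Those of ZEB2 and TWIST1 held in the 18 and 14 alternatives that tested them, at 5.12 to 6.66 for ZEB2. Neither gene was tested after background subtraction, and TWIST1 also not in the lower-background lines or in some other subsets of lines. Summed vesicle counts were 1.11 times the expected background for ZEB2 and 0.44 times for TWIST1, so whether these calls outlast subtraction was not tested. VIM lost its call after background subtraction (1.40) and with no replicate block (1.41), and SPARC in the lower-background lines (3.45). FN1, not called, turned negative with no replicate block (-0.74) and in the lower-background lines (-1.13). SNAI2 was called with DESeq2 size factors (adjusted p = 0.0373), library size only (0.0457), upper-quartile scaling (0.0244), DESeq2's test (0.000392), no filter (0.0467) and without LS1034, HT-29 or SW480 (0.0336, 0.0248 and 0.0304), and SNAI1 with upper-quartile scaling (0.0354) and DESeq2's test (0.0216). Of the 10 genes, 5 to 7 were called higher when 1 line was left out, 5 with no replicate block and 2 after subtraction, where fewer genes passed the filter. By edgeR and DESeq2, 0 were called lower under any alternative, and 0 were lower at an unadjusted p under 0.05. Over all genes, 4322 were called higher: 6957 with upper-quartile scaling, 1897 after subtraction, 2881 in the lower-background lines and 3470 with no replicate block. The number was 3895 (without LS1034) to 4749 (without LoVo) when 1 line was left out, and 3834 without WiDr and LS123. Over all genes, 4254 were called lower: 1759 with upper-quartile scaling, 2465 by library size alone, 2802 with DESeq2's size factors, 2456 after subtraction, 2816 in the lower-background lines and 2383 (without LoVo) to 4277 when 1 line was left out. The median of all genes was 0.01 with TMM and 0.76 with upper-quartile scaling. Other transcription factors called higher numbered 0 of 9 after subtraction and 0 of 9 in the lower-background lines, beside 14.9% and 19.5% of all genes. They numbered 2 (without WiDr) to 4 when 1 line was left out and 2 without WiDr and LS123. Of these factors, 1 was called lower with each other scaling, after subtraction, in the lower-background lines and without LoVo. Without any other single line 2 were. All genes called in these fits are counted above. Mesenchymal genes called higher numbered 19 of 35 with DESeq2's test, 4 of 35 with no replicate block, 5 of 29 after subtraction and 7 of 35 in the lower-background lines. Of all genes, 41.4%, 22.9%, 14.9% and 19.5% were called higher in these fits. Epithelial genes called higher numbered 3 of 30 with upper-quartile scaling and 1 of 30 with DESeq2's test, beside 46.0% and 41.4% of all genes. Signalling genes called higher numbered 1 of 16 with no replicate block, 0 after subtraction and 1 in the lower-background lines. Beside these stand 22.9%, 14.9% and 19.5% of all genes. With the longest transcript as length, an alternative chosen after seeing the data, observed over expected vesicle counts were 7.54 for ZEB1 and 23.8 for VIM. Leaving out SW480, also chosen after seeing the data, gave 1.49 for VIM and 2.19 for ZEB1. The causes of these shifts were not tested. Vesicle depth, at most 4615692 counts in 6 lines, limits what can be told of single lines.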
